A study of Homo sapiens with 4 samples.

Results

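The translation factors are the soluble proteins that start, extend and end protein synthesis on the ribosome. The members are 40 genes listed by name: initiation factors, the repressors of the cap-binding protein eIF4E, elongation factors, release factors and cytoplasmic poly(A)-binding proteins. They were sought among the probe sets of the Affymetrix HG-U95Av2 array that carry exactly 1 gene symbol, and where a gene had several, the one brightest on average across the 4 arrays stood for it. Of the 40 genes 33 had such a probe set, and 31 of these reached the floor of 5 (log2) on at least 1 array and were analysed, among 3588 genes analysed in all. EEF1B2, EEF1G, EIF3C, EIF4A1, EIF4A2, EIF4G3 and PABPC4 had no probe set with a single symbol and were not analysed here. EIF2B1 and EIF3A stayed below the floor on every array, with highest values of 2.28 and 3.25.

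The cells were of the established human line LS180, from a colon carcinoma, and RBM35A was under Tet-off control. RBM35A, now named ESRP1, is an epithelial RNA-binding protein known for regulating splicing. The 4 groups had 1 array each: polysomal RNA of RBM35A+ cells, polysomal RNA of RBM35A− cells, total RNA of RBM35A+ cells and total RNA of RBM35A− cells. RBM35A+ cells had grown for at least 6 days without doxycycline. RBM35A− cells were the parental cells kept in doxycycline, so the drug changed together with the protein, and the labels leave unsaid whether these cells held the construct. Polysomal RNA is RNA bound to several ribosomes and was collected from sucrose gradients, while total RNA was extracted with TRIZOL; in the labels the molecule is polyA RNA for polysomal and total RNA for the other arrays. RNA fraction, extraction and any poly(A) selection therefore cannot be told apart. The study asked how RBM35A alters total and polysomal mRNA. Without replicates, each difference below compares single arrays and carries no replicate error.

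Initiation begins when eIF2, a complex of alpha, beta and gamma subunits, brings the initiator tRNA to the small ribosomal subunit. eIF2B recharges eIF2 with GTP, eIF3 and the small factors eIF1 and eIF1A hold the scanning complex together, and the eIF4 factors bind the mRNA cap and unwind the leader. Elongation factors then deliver aminoacyl-tRNAs and move the ribosome along, and release factors free the finished chain. Many mRNAs of this machinery begin with a 5′ terminal oligopyrimidine tract (TOP), a C followed by a stretch of C and T, through which the mTOR kinase is known to set their loading onto polysomes.

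Start sequences were read from RefSeq promoter windows (GRCh38.p14) for 24 of the 31 analysed genes, because TOP tracts link these mRNAs to their own translation. An uninterrupted run of at least 5 letters C or T, opening with C at an annotated start on the sense strand, was sought. It was present in 6 of the 24 genes (25.0%), against 9.39% of the 3025 analysed genes with a window and 6.24% of 15842 protein-coding genes. A gene could have several windows and counted if any had a run. For the genes shown, the window with the longest run was used. Of all 22198 windows 4.54% had a run. All 6 are shown with 20 bases before and 20 from the start, and EIF2S1, another eIF2 subunit, is shown for contrast. Capitals mark the run.
EEF1A1: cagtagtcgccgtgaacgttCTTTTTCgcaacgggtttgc
EEF2: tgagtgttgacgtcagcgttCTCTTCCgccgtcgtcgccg
EIF2S3: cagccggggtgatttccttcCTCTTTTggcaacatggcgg
EIF3D: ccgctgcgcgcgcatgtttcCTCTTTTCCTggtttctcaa
EIF3F: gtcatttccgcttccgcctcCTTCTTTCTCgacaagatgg
EIF4B: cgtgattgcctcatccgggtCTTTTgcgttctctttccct
EIF2S1: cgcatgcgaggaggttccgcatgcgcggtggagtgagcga

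These windows lie at chr6:73521013-73521052 (minus strand) for EEF1A1, chr19:3985444-3985483 (minus) for EEF2, chrX:24054936-24054975 (plus) for EIF2S3, chr22:36529147-36529186 (minus) for EIF3D, chr11:7987317-7987356 (plus) for EIF3F, chr12:53006436-53006475 (plus) for EIF4B and chr14:67360308-67360347 (plus) for EIF2S1. The run was 10 bases long in EIF3D and EIF3F, 7 in EEF1A1, EEF2 and EIF2S3, and 5 in EIF4B. A run is a match of letters at an annotated start, and the start used in LS180 cells was not measured.

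The arrays held 12626 probe sets, of which 34.2% reached 5 on each polysomal array and 33.8% on each total RNA array. Of 15 epithelial and colon markers 14 were analysed, all but KRT20, and their summed level was 14.69 and 14.90 (log2) on the RBM35A+ and RBM35A− polysomal arrays and 15.56 and 15.58 on the RBM35A+ and RBM35A− total RNA arrays. Of the markers on the array, 1 of 11 for fibroblasts and endothelium (COL1A1) and 1 of 10 for blood cells (HBB) was analysed. RBM35A had 0 probe sets with a single symbol, so only the labels tell RBM35A+ from RBM35A− cells. Control probe sets at the 5′ ends of beta-actin and GAPDH transcripts differed by −0.86 and −0.79 (log2, RBM35A+ minus RBM35A−) between the polysomal arrays, with 3′ differences of −0.02 and −0.13. Their 5′ differences in total RNA were −0.05 and −0.03. Where along its transcript the probe set of each translation factor lies was not used, so the part of this 5′ signal in the polysomal differences below was not tested.

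With RBM35A, most translation factor transcripts stayed close to their level without it, and EIF2S3, which encodes the gamma subunit of eIF2, was the exception in polysomal RNA. It was 2.14-fold lower in RBM35A+ polysomal RNA, while its total RNA differed by −0.06 (log2). EIF4EBP1, EIF4B and EIF1 were lower in both fractions, with differences between −0.49 and −0.35 (log2). EIF2S1, EIF2B4 and EIF2B5 lay on the other side in polysomal RNA, at 0.31 to 0.44, and EIF2B2, the remaining eIF2B subunit analysed, at −0.07. In polysomal RNA 0 of 31 factors were at least 1.5-fold higher and 1 was at least 1.5-fold lower, against 0.725% and 1.23% of all genes. In total RNA 0 of 31 were 1.5-fold higher and 0 were 1.5-fold lower, against 1.42% and 0.613% of all genes. These shares do not set the factors apart from other genes at 1.5-fold.

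**Figure D1:**
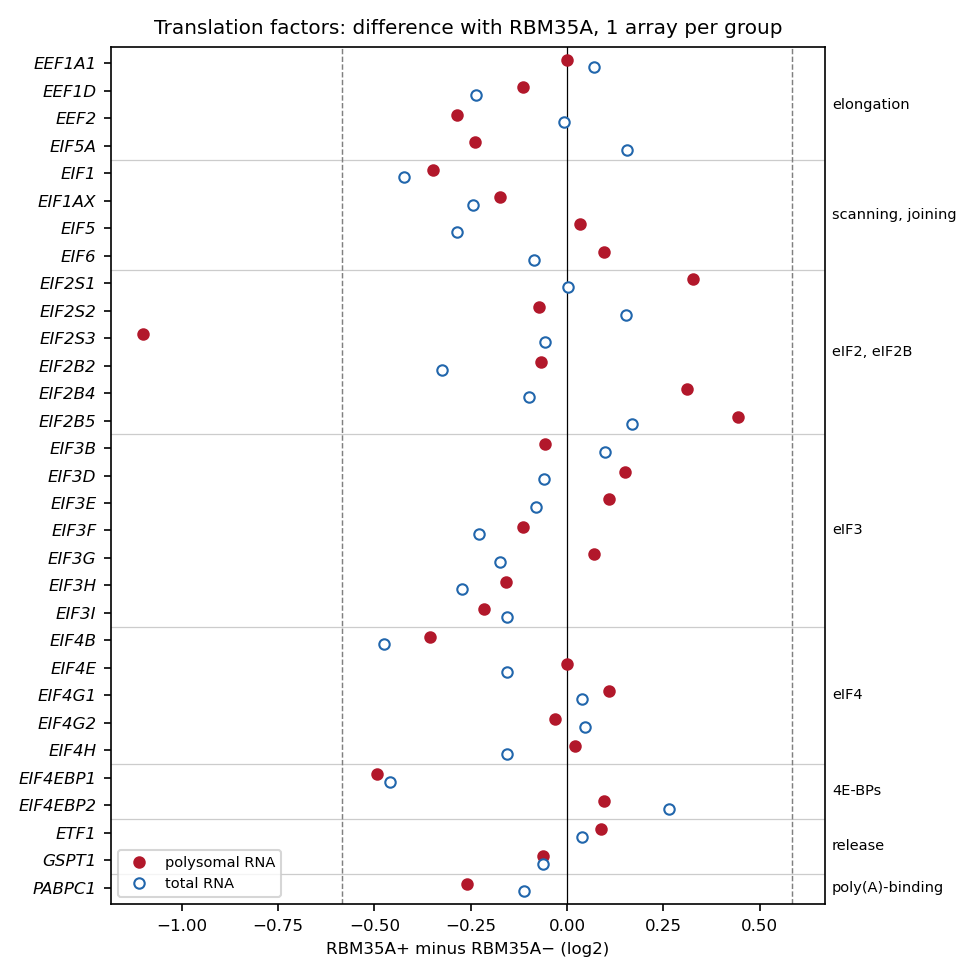
RBM35A+ minus RBM35A− (log2) for each of the 31 analysed translation factors, grouped by role, with filled points for polysomal RNA and open points for total RNA, 1 array per group. Dashed lines mark 1.5-fold; EIF2S3 in polysomal RNA (−1.10) is the 1 value beyond them. The polysomal point of EIF4E at 0 stands for an unknown difference, both values being below the floor.

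The smaller differences leaned downward. In polysomal RNA 17 of the 30 factors measured there were below 0, 12 above and 1, EEF1A1, at 0, with a median of −0.06; EIF4E was below the floor on both polysomal arrays and its difference is unknown. This stands against 40.4% of all genes below 0 (1451, with 1913 above and 224 at exactly 0) and a median of 0.01. In total RNA 21 of 31 (67.7%) were below 0, with a median of −0.09. Of all genes 45.6% were (1636, with 1669 above and 283 at exactly 0), with a median of 0.00. Below 0 in both fractions were 13 factors, or 41.9%, against 22.8% of all genes, of which 14.1% were at exactly 0 in a fraction. Genes at 0 stay in all the shares of all genes given here, which lowers their shares below 0. EIF4E was left out of the counts of 30 factors, so the sets compared are unlike in this. It stays in every count of 31 factors, with its polysomal values at the floor. As an error scale, the SD of the difference of 1 probe set, estimated from how far probe sets of 1 gene disagreed over 339 genes, was 0.195 in polysomal and 0.188 in total RNA; it covers differences between probes and not between cultures. By this scale 19 of the 30 measured polysomal differences (63.3%) and 21 of the 31 total RNA differences (67.7%) were no larger than 1 SD, against 69.8% and 67.4% of all genes. A lower signal in such bulk RNA can mean fewer cells with the transcript or fewer copies per cell, which cannot be told apart.

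EIF2S3 read 5.73 on the RBM35A+ and 6.83 on the RBM35A− polysomal array, and 8.81 on the RBM35A+ and 8.86 on the RBM35A− total RNA array. Its second probe set read 4.88 and 5.98 on the RBM35A+ and RBM35A− polysomal arrays and 7.84 and 8.03 on the RBM35A+ and RBM35A− total RNA arrays. The RBM35A+ polysomal array was thus the lowest of the 4 by both probe sets. The polysomal difference was −1.10 by the first probe set and at least 0.98 in size by the second, which fell below the floor (−1.11 as deposited). Among all 3588 genes the first probe set's difference was the third lowest, and 0.167% of genes were lower by 2-fold or more. The polysomal difference minus the total RNA difference was −1.04, the 1 member beyond 1.5-fold in this quantity, against 2.12% of all genes lower and 1.31% higher. The probe sets may also detect the near-identical retrocopy EIF2S3B.

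The other eIF2 subunits did not share this. EIF2S1, the alpha subunit whose phosphorylation is known to restrain initiation, read 7.42 and 7.10 on the RBM35A+ and RBM35A− polysomal arrays and 8.59 and 8.58 on the RBM35A+ and RBM35A− total RNA arrays. Its second probe set was below the floor on all 4 arrays. EIF2S2, the beta subunit, read 7.28 and 7.35 on the RBM35A+ and RBM35A− polysomal arrays and 7.12 and 6.97 on the RBM35A+ and RBM35A− total RNA arrays. The polysomal difference of EIF2S1 was 0.33 and that of EIF2S2 was −0.07, so the transcripts of the 3 subunits had differences of either sign on the same pair of arrays.

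Of the eIF2B subunits, EIF2B5, the catalytic epsilon subunit, had the highest polysomal difference of all 31 factors. It read 7.35 and 6.91 on the RBM35A+ and RBM35A− polysomal arrays and 6.64 and 6.47 on the RBM35A+ and RBM35A− total RNA arrays, differences of 0.44 and 0.17. EIF2B4, the delta subunit, read 7.69 and 7.38 on the RBM35A+ and RBM35A− polysomal arrays and 6.46 and 6.55 on the RBM35A+ and RBM35A− total RNA arrays. Its difference was thus 0.31 in polysomal and −0.10 in total RNA. EIF2B2, the beta subunit, was the low one in total RNA, with 9.58 and 9.90 on the RBM35A+ and RBM35A− arrays (−0.33). Its polysomal levels of 9.09 and 9.15 on the RBM35A+ and RBM35A− arrays differed by −0.07.

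**Figure D2:**
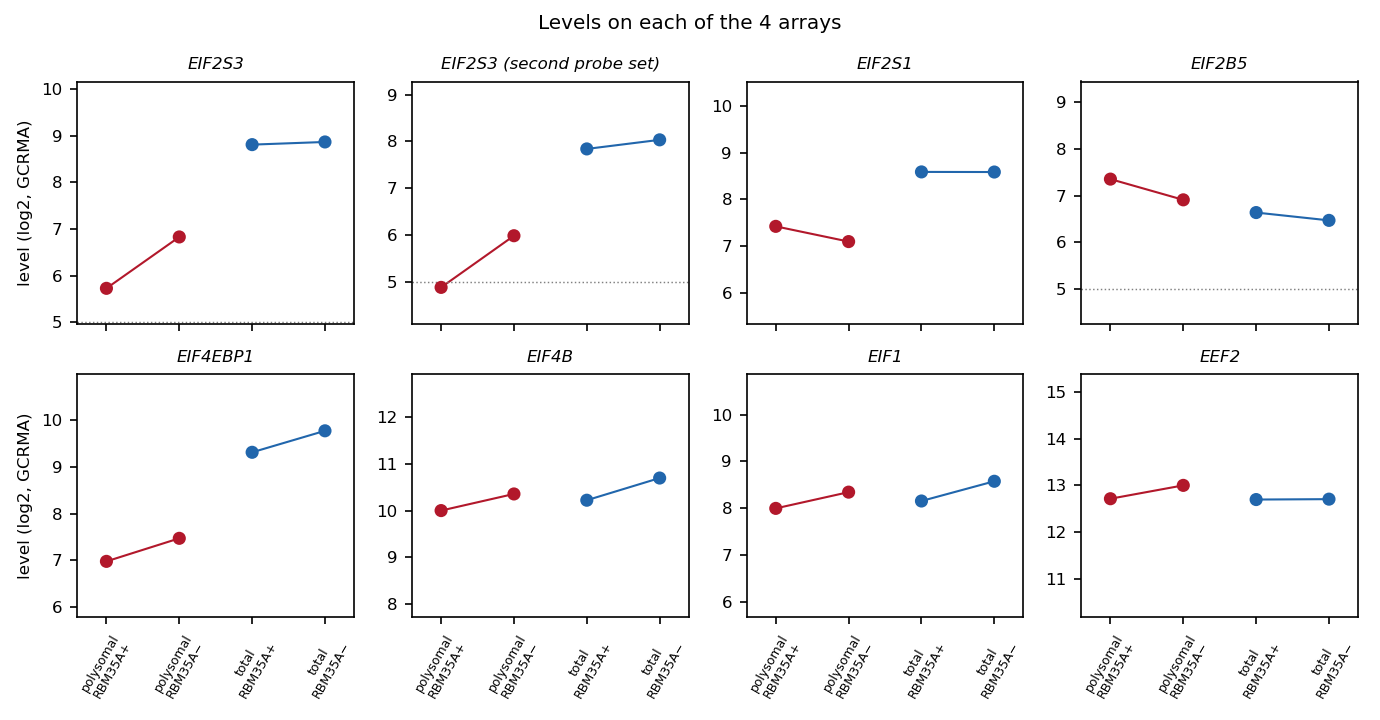
Levels (log2, GCRMA) of 7 translation factors on each of the 4 arrays, with both probe sets of EIF2S3; lines join the RBM35A+ and RBM35A− arrays of a fraction and the dotted line, where in range, is the floor of 5. All panels span the same height in log2 units; the RBM35A+ polysomal value of EIF2S3 is the lowest in both of its panels.

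EIF4EBP1, EIF4B and EIF1 were lower in RBM35A+ cells in both fractions by more than 1 probe set SD, which 3 of 31 factors (9.68%) and 4.38% of all genes were; 0 factors were higher by as much in both, against 4.65% of all genes. EIF4EBP1 encodes 4E-BP1, which holds eIF4E away from eIF4G until mTOR phosphorylates it. It read 6.98 and 7.47 on the RBM35A+ and RBM35A− polysomal arrays and 9.31 and 9.77 on the RBM35A+ and RBM35A− total RNA arrays, differences of −0.49 and −0.46, through a single probe set whose identifier marks an irregular choice of probes. Its relative EIF4EBP2 went the other way, with 9.10 and 9.00 on the RBM35A+ and RBM35A− polysomal arrays and 10.20 and 9.94 on the RBM35A+ and RBM35A− total RNA arrays. The total RNA difference of EIF4EBP2, 0.26, was the highest of the 31 factors.

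EIF4B, a cofactor of the eIF4A helicase, read 10.00 and 10.36 on the RBM35A+ and RBM35A− polysomal arrays and 10.22 and 10.70 on the RBM35A+ and RBM35A− total RNA arrays. EIF1, which guards the choice of the start codon, read 8.00 and 8.34 on the RBM35A+ and RBM35A− polysomal arrays and 8.15 and 8.58 on the RBM35A+ and RBM35A− total RNA arrays. The RBM35A+ array was the lower one in each pair for both genes. The polysomal and total RNA differences were −0.36 and −0.47 for EIF4B and −0.35 and −0.42 for EIF1.

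The rest of the eIF4 group had small differences. The scaffold EIF4G1 had differences of 0.11 in polysomal and 0.04 in total RNA, with 0.03 and 0.09 at its other probe set. EIF4G2, a relative of eIF4G that lacks the eIF4E-binding region, had −0.03 and 0.05, and EIF4H, a helicase cofactor, 0.02 and −0.16. The single probe set of EIF4H carries the same mark of an irregular choice of probes as that of EIF4EBP1. EIF4E itself, the cap-binding protein, lay below the floor on both polysomal arrays, so its polysomal difference is unknown, and read 5.28 and 5.44 on the RBM35A+ and RBM35A− total RNA arrays.

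All 4 analysed factors of scanning and subunit joining were below 0 in total RNA, as were 45.6% of all genes. Their polysomal differences all exceeded their total RNA differences, by 0.07 to 0.32. The same held for 19 of the 30 factors other than EIF4E and for 1888 of 3588 genes. For this gap the SD of 1 probe set was 0.239, and 3 of the 4 factors lay within it. EIF5, which triggers GTP hydrolysis on eIF2, read 8.76 and 8.73 on the RBM35A+ and RBM35A− polysomal arrays and 9.63 and 9.92 on the RBM35A+ and RBM35A− total RNA arrays. Its total RNA difference of −0.29 was not shared by its second probe set, at 0.02. EIF1AX, the X-linked gene of eIF1A, had −0.17 in polysomal and −0.25 in total RNA, with −0.09 and −0.27 at its other measured probe set. A further probe set of EIF1AX was below the floor on all 4 arrays. EIF6, which keeps the large ribosomal subunit from joining early, had 0.10 and −0.09.

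The eIF3 complex was represented by 7 of its 9 listed subunits. In polysomal RNA 4 of the 7 were below 0 (median −0.06), and in total RNA 6 of the 7 were (median −0.15). EIF3H had the lowest total RNA difference among them (−0.27), followed by EIF3F (−0.23). EIF3D, which can bind the cap itself, and EIF3E had the highest polysomal differences, 0.15 and 0.11, with −0.06 and −0.08 in total RNA. EIF3D read 11.44 and 11.29 on the RBM35A+ and RBM35A− polysomal arrays and 11.21 and 11.27 on the RBM35A+ and RBM35A− total RNA arrays. EIF3E read 10.87 and 10.76 on the RBM35A+ and RBM35A− polysomal arrays and 10.61 and 10.69 on the RBM35A+ and RBM35A− total RNA arrays. For both genes RBM35A+ was thus the higher array in polysomal RNA and the lower one in total RNA. EIF3B, a core scaffold subunit, was the 1 subunit above 0 in total RNA, at 0.10 (12.03 and 11.93 on the RBM35A+ and RBM35A− total RNA arrays), and had −0.06 in polysomal RNA (12.27 and 12.33 on the RBM35A+ and RBM35A− polysomal arrays). EIF3G had 0.07 in polysomal and −0.18 in total RNA, and EIF3I −0.22 and −0.15, with −0.10 and −0.25 at its other probe set.

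Among elongation factors, none of the 4 analysed was above 0 in polysomal RNA. EEF2, the translocase, read 12.72 and 13.00 on the RBM35A+ and RBM35A− polysomal arrays and 12.70 and 12.71 on the RBM35A+ and RBM35A− total RNA arrays, differences of −0.29 and −0.01. EIF5A, which relieves stalls at proline stretches, read 7.79 and 8.03 on the RBM35A+ and RBM35A− polysomal arrays and 9.11 and 8.95 on the RBM35A+ and RBM35A− total RNA arrays. EIF5A was thus lower in polysomal (−0.24) and higher in total RNA (0.16). EEF1A1, which delivers aminoacyl-tRNA, is among the most abundant mRNAs of the cell, and its probe sets may also detect EEF1A2 and processed copies. Its polysomal differences were 0.00, −0.22 and −0.26 over 3 probe sets, and its total RNA differences were 0.07, 0.11 and −0.08. EEF1D, of the exchange complex that recharges eEF1A, read 12.36 and 12.47 on the RBM35A+ and RBM35A− polysomal arrays and 11.84 and 12.07 on the RBM35A+ and RBM35A− total RNA arrays, differences of −0.11 and −0.24.

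The release factors were nearly level. ETF1 (eRF1), which reads the stop codons, had 0.09 in polysomal and 0.04 in total RNA, and GSPT1 (eRF3), its GTPase partner, had −0.06 in both. PABPC1, which bridges the poly(A) tail to eIF4G, had −0.26 in polysomal and −0.11 in total RNA through a probe set of shared sequence, and −0.03 and −0.05 at its other probe set.

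**Figure D3:**
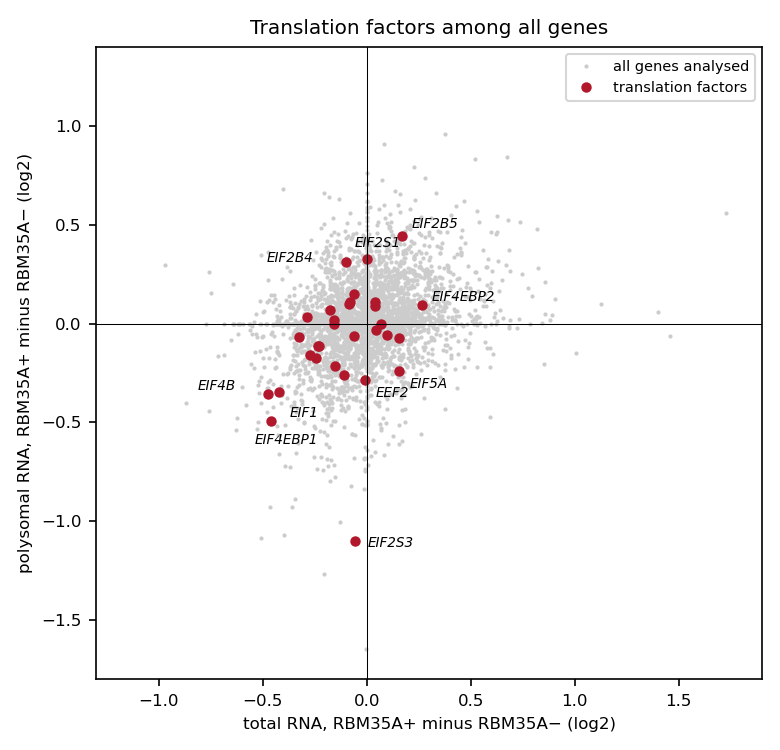
RBM35A+ minus RBM35A− in polysomal RNA (vertical, log2) against the same difference in total RNA (horizontal, log2) for 3588 genes in grey and 31 translation factors in red. EIF2S3 lies low on the vertical axis alone (−1.10 and −0.06), while EIF4EBP1, EIF4B and EIF1 lie low on both.

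An additive model of RBM35A state and RNA fraction over the 4 arrays, fitted with limma, called 0 of 3588 genes for RBM35A state at an adjusted p of 0.05, and so 0 of the 31 factors (0% of all genes called). At an unadjusted p under 0.05 it named 1 factor higher and 4 lower, against 5.55% and 4.74% of all genes. The factor higher was EIF2B5 and those lower were EIF4EBP1, EIF4B, EIF1 and EIF2S3. EIF4EBP1 had the smallest p of the 31 (mean difference −0.48, SE 0.10, adjusted p = 0.371 with limma, lower in both fractions). EIF2S3 had a mean difference of −0.58 with an SE of 0.23 (adjusted p = 0.469 with limma). The fit had 1 residual degree of freedom, the interaction, so these p-values weigh how alike the fractions were and not how cultures vary.

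The list of known TOP mRNAs used here need not be complete. EEF1B2 and EEF1G were on it but not analysed. Its analysed members were EEF1A1, EEF1D, EEF2, EIF3E, EIF3F, EIF3H, EIF4B and PABPC1. Their median difference was −0.14 in polysomal RNA, with 6 of 8 below 0, and −0.17 in total RNA, with 7 of 8 below 0. Of all genes 40.4% and 45.6% were below 0. The other 23 factors had medians of 0.00 and −0.06, with 11 and 14 below 0. Their polysomal median is the floored value of EIF4E, whose difference is unknown, and 11 were above 0 there. Of the 8 TOP genes, 5 polysomal and 4 total RNA differences were no larger than 1 probe set SD. EEF1A1 and PABPC1 entered through probe sets of shared sequence, with polysomal differences of 0.00 and −0.26. Without such probe sets these were −0.26 and −0.03. No gene on this list passed 1.5-fold in either RBM35A comparison, and EIF2S3, which did in polysomal RNA, was not on it. All 4 TOP genes with a promoter window had the run of C and T shown above, and EIF3D and EIF2S3 had one without being on the TOP list.

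By sequence alone, the 6 factors with the run had a median of −0.20 in polysomal RNA (−0.12 without EIF2S3) and the 18 without it 0.01. In total RNA the medians were −0.06 and −0.07. The polysomal median of the 18 rests in part on EIF4E, counted at 0 though its difference is unknown. Over all genes the polysomal medians were 0.00 for the 284 with a run and 0.01 for the 2741 without. Of the 6 factors, EIF3D, with one of the longest runs, had the 1 positive polysomal difference (0.15), and EIF2S3 the lowest.

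Against total RNA, translation factor transcripts were on the low side in polysomal RNA. The median polysomal minus total difference, as the mean of both states, was −0.22 for the 31 factors and 0.09 for all genes, and 21 of 31 factors were below 0 (67.7%) against 44.4% of genes. At 1.5-fold 1 factor was higher and 9 were lower, against 26.0% and 17.0% of all genes. EIF2S3 had −3.08 in RBM35A+ and −2.03 in RBM35A− cells, a mean 5.87-fold lower, and −2.45 at its second probe set. EIF4EBP1 had −2.33 in RBM35A+ and −2.30 in RBM35A− cells. EIF2S1 (−1.33), EIF5A (−1.12), EIF5 (−1.03, with −0.34 at its other probe set) and EIF4EBP2 (−1.02) followed as means of both states.

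On the high side EIF2B4 had 1.24 in RBM35A+ and 0.83 in RBM35A− cells, and EIF2B5 0.72 and 0.44. EEF1D (0.46), EIF3B (0.32) and EIF2S2 (0.26) came next as means of both states. Values nearer 0 included EEF1A1 at −0.15, EEF2 at 0.16, EIF4G1 at 0.19 and EIF4G2 at −0.11. PABPC1 had −0.75 at the probe set used and −0.02 at its other one. The 5′ controls of beta-actin and GAPDH had polysomal minus total differences of −4.91 and −2.21 and the 3′ controls −0.29 and −0.15, and the part of such 5′ loss in the low factors was not tested. The SD of 1 probe set was 0.732 for this difference, at least as large as the difference of 23 of the 31 factors (74.2%), against 66.2% of all genes. limma called 4 factors higher and 15 lower in polysomal RNA at an adjusted p of 0.05, against 38.5% and 27.4% of all genes. With the same 1 residual degree of freedom, these p-values weigh how alike the gap was in both RBM35A states and not how cultures vary.

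**Figure D4:**
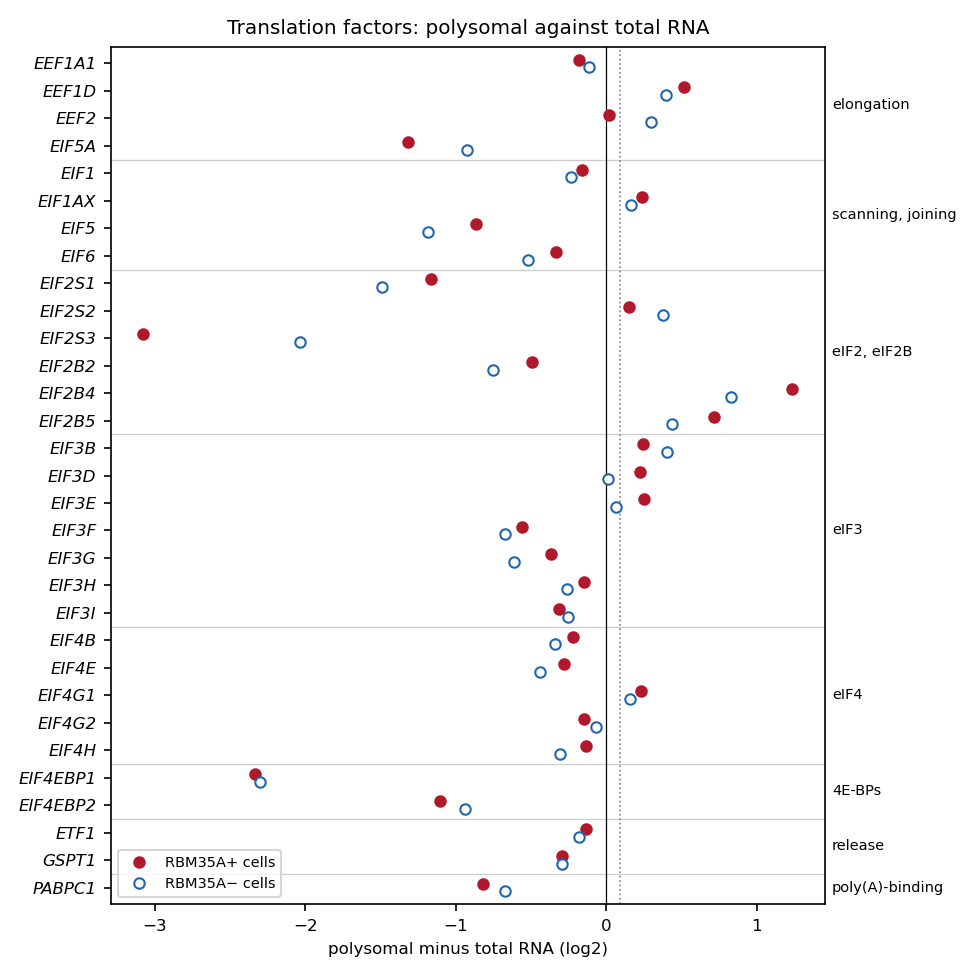
Polysomal minus total RNA (log2) for the 31 translation factors by role, with filled points for RBM35A+ cells and open points for RBM35A− cells, 1 array per group; the dotted line is the median of all genes analysed (0.09). EIF2S3 and EIF4EBP1 lie farthest to the left in both states, and EIF2B4 farthest to the right.

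A list of 43 other genes of cytosolic translation and its control had 16 analysed. In polysomal RNA 1 of the 16 was 1.5-fold higher and 1 lower, against 0.725% and 1.23% of all genes. In total RNA 1 was higher and 0 lower, against 1.42% and 0.613%. The medians were 0.02 in polysomal and −0.05 in total RNA. EIF5B, the GTPase that joins the ribosomal subunits, was 1.61-fold higher in total RNA, with 6.87 on the RBM35A+ and 6.18 on the RBM35A− array, and had 0.26 in polysomal RNA. MKNK2, a kinase that phosphorylates eIF4E, was 1.52-fold higher in polysomal RNA (6.19 and 5.59 on the RBM35A+ and RBM35A− arrays) and had 0.08 in total RNA. These MKNK2 values came from a probe set treated here as of shared sequence, and its other probe set was below the floor on all 4 arrays. RPS6KB2, a ribosomal S6 kinase downstream of mTOR, was 1.60-fold lower in polysomal RNA (9.36 and 10.04 on the RBM35A+ and RBM35A− arrays) with −0.01 in total RNA. The lowest in total RNA was EIF2AK2, the kinase PKR that phosphorylates eIF2 alpha, at −0.27.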

How the data were processed

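The authors deposited log2 probe set levels. GCRMA is the tool that the submitters' processing notes name, with no version given in the sources used here; it estimates background from probe sequence and merges the probes of a set into 1 level. The largest gap between sorted values was 6.61e-06 for the polysomal pair, 4.29e-06 for the total RNA pair and 0.227 between pairs, so each pair was quantile normalized apart from the other, which removes any shift common to most genes of 1 array.

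Symbols came from the array annotation, updated by gene ID to RefSeq (10934 of 10943 probe sets with 1 symbol matched). Values under 5 were raised to 5, and a gene was analysed where any of the 4 arrays reached 5. The probe set SD used probe sets at 5 or more on all 4 arrays. Genes were counted at 1.5-fold and 2-fold. The additive model used limma 3.58.1 (lmFit, eBayes; R 4.3.3), p-values adjusted by Benjamini-Hochberg over 3588 genes and a threshold of 0.05, and was tested on simulated data. Array values are given for members past 1.5-fold and for the 5 highest and 5 lowest of each comparison, and for other translation genes past 1.5-fold or at an extreme. The number of arrays limits the precision. Members and lists were chosen with earlier results of these data known.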

Additional observations from a re-analysis of the deposited data

Results flagged for a closer look

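EIF4A3, the helicase of the exon junction complex and a relative of eIF4A, had differences of opposite sign in the fractions. It was 0.46 higher (log2) in RBM35A+ polysomal RNA, with 8.71 on the RBM35A+ and 8.24 on the RBM35A− array, and its total RNA difference was −0.16, with 8.90 and 9.05 on the RBM35A+ and RBM35A− arrays. The difference between the differences was 0.62, past 1.5-fold, as it was for 1.31% of all genes. Of the 16 other translation genes analysed, EIF4A3 was the 1 past 1.5-fold on this side. RPS6KB2, at −0.67, was the 1 on the other side. With 1 array per group, these differences were not tested.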

How the results depend on the processing

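Each result was recomputed with floors of 4 and 6, with no floor, with the mean of a gene's probe sets, without probe sets of shared sequence, with joint quantile normalization of the 4 arrays and with differences centred on the median of all genes. Over these 7 alternatives, 848 of 856 values of single factors moved by no more than 1 probe set SD, and the counts of factors past 1.5-fold in the RBM35A comparisons kept their size (0 in total RNA, 1 in polysomal RNA). Many of these values could not move under several alternatives. Floors do not touch a factor above 6 on all arrays, and the probe set settings do not touch one with 1 probe set of unshared sequence. For polysomal minus total RNA the SD was 0.732, so PABPC1 counts as unmoved although it went from −0.75 to −0.02 without probe sets of shared sequence. The polysomal difference of EIF2S3 was −0.83 with a floor of 6, which cuts the lower value. That of EEF1A1 was −0.26 and that of PABPC1 −0.03 without probe sets of shared sequence, under which EIF4EBP1 and EIF4H were not measured. EIF4E, with both polysomal values between 4 and 5, had a polysomal difference of −0.51 and a polysomal minus total RNA difference of differences of −0.35 with a floor of 4 and with no floor, against 0 and 0.16. The difference of differences of EIF2S3 was −0.77 with a floor of 6. Over all genes limma called 15 for RBM35A state without a floor, against 0, and 0 of these were translation factors; the cause was not tested. No paired analysis was possible because each group had 1 array and the labels give no replicate numbers.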

Other observations

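Of 9 mitochondrial translation factors 3 were analysed. TUFM, the mitochondrial elongation factor Tu, read 13.50 on both polysomal arrays and 13.09 and 12.92 on the RBM35A+ and RBM35A− total RNA arrays. MTIF2, the mitochondrial initiation factor, had RBM35A differences of 0.26 in polysomal and −0.19 in total RNA, and TSFM, the exchange factor of TUFM, 0.14 and −0.17. None of the 3 passed 1.5-fold in either RBM35A comparison.

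The probe sets of EIF2AK2 gave different levels in the fractions. One, of shared sequence, read 2.61 and 2.62 on the RBM35A+ and RBM35A− polysomal arrays but 9.22 and 9.49 on the RBM35A+ and RBM35A− total RNA arrays. The other read 5.31 and 5.33 on the RBM35A+ and RBM35A− polysomal arrays and 5.41 and 5.63 on the RBM35A+ and RBM35A− total RNA arrays. On the first probe set the gap between fractions, −4.36 with the floor, exceeds that of every translation factor analysed.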
